A study of Homo sapiens with 7 samples.

Results

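The metallothionein genes MT2A, MT1E, MT1X and MT1F were followed together with MTF1, the transcription factor that switches them on when zinc rises, and SLC30A1, the transporter that carries zinc out of the cell. These 6 genes were chosen by symbol from the 16686 symbols of the expression table, 1 entry per symbol, and all 6 had a value in every library and passed the filter on low values. RNA-seq had been done on N/TERT2G cells, a human keratinocyte line immortalized with telomerase. Transfection was with pooled siGENOME SMARTpool siRNAs against YAP1 and WWTR1 (the gene of TAZ) in the 4 siYT libraries, A to D, and with a non-targeting siRNA in the 3 siCON libraries, A to C. Every culture received 8 pmol of siRNA per cm2 with Lipofectamine RNAiMAX in EpiLife medium with a keratinocyte growth supplement, and was harvested 48 h later. All libraries came from this 1 line. In its reporting summary the study states that, in experiments on cells, treated wells were seeded together with their controls, and no source used here ties the replicate letters to separate platings, so a p-value here reflects how far these samples scatter, which may be technical scatter alone.

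Metallothioneins are small, cysteine-rich proteins that hold zinc and copper in clusters of metal and sulfur and also bind cadmium. MTF1 is a zinc-finger protein that enters the nucleus and binds metal response elements (MREs) in promoters when free zinc rises, and metallothionein genes and SLC30A1 are its best known targets. Metallothioneins take up zinc inside the cell, whereas SLC30A1 (ZnT1) sits in the plasma membrane and exports it. In the epidermis, metallothionein protein is found mainly in the proliferating basal layer. YAP1 and TAZ are co-activators of the Hippo pathway that reach DNA through the TEAD factors.

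Values are the authors' gene-level signal after TMM (trimmed mean of M values) scaling, on a scale near CPM (counts scaled to a common library size). Library totals ran from 866098 to 955106, and no gene was listed at 0. If the lowest value of a library stands for 1 read, the libraries held approximately 20700000 to 23900000 reads, so 1 unit of signal was about 21.7 to 27.4 reads. The knockdown was visible in every siYT library: YAP1 measured 231 to 258 in siCON and 64.5 to 76.2 in siYT (3.55-fold lower, limma adjusted p = 1.60e-12), and WWTR1 measured 34.4 to 37.3 and 4.90 to 6.30 (6.04-fold lower, limma adjusted p = 2.26e-12). The 6 keratinocyte markers summed to 52900 to 55900 in siCON and 48600 to 52500 in siYT, and of them TP63 was called higher (log2 fold change 0.61, but 0.58 and not called without siCON A). Of the other cell types, 5 of 7 fibroblast markers were in the table and summed to 227 to 256 in siCON and 186 to 193 in siYT. COL3A1 (−1.60) and DCN (−0.68) of these were called lower and COL1A2 (0.69) higher. Of the rest, 1 of 5 melanocyte markers reached 0.739 to 1.66 over all libraries, 2 of 4 leukocyte markers 47.8 to 60.0 and 1 of 3 endothelial markers 0.309 to 0.941. The part of other cells in the results below was not tested. In these bulk samples, fewer cells of a kind and less RNA per cell cannot be told apart.

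In siYT cells the 4 metallothionein genes fell and both MTF1 and SLC30A1 rose. MT2A fell 3.69-fold, MT1E 2.50-fold, MT1F 2.35-fold and MT1X 2.0-fold, while SLC30A1 rose 2.10-fold and MTF1 1.71-fold. All 6 genes were called, that is, at an adjusted p under 0.05 and at least 1.5-fold apart, and for each of them the siCON and siYT libraries did not overlap. Among the 13072 genes tested, 27.4% were called (14.1% higher and 13.2% lower in siYT) and 68.7% did not overlap between groups, with a median log2 fold change of 0.00. Calls and separation of the groups were therefore frequent in this comparison.

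The metallothioneins are nearly the same gene several times over, which matters for how reads were assigned. Their coding sequences are shown because this likeness limits how finely the members can be told apart. Each is 183 bases long (61 codons without the stop), of which 20 are cysteine codons. In MT2A the cysteine codons are in capitals, and in the other 3 genes the capitals mark bases that differ from MT2A. For MT1E, whose canonical transcript carries a longer reading frame, the principal isoform was used.
MT2A: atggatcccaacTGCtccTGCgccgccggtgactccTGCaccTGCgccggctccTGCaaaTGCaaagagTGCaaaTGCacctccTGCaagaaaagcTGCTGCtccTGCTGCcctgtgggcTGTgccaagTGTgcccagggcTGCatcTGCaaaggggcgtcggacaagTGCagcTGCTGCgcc
MT1E: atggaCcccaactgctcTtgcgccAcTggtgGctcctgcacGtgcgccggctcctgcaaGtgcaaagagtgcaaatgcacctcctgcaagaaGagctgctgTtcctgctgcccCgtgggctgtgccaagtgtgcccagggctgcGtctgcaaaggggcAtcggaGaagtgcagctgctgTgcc
MT1X: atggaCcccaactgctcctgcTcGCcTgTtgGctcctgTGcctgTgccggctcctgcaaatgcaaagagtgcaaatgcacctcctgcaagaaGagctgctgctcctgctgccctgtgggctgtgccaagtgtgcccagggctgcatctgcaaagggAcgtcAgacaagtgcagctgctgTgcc
MT1F: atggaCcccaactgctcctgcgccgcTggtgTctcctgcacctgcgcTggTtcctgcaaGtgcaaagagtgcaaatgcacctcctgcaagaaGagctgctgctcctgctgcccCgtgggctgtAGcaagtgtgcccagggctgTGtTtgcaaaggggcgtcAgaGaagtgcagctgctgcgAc
MT1E and MT1X each differed from MT2A at 14 of the 183 bases (92.3% identity) and MT1F at 16 (91.3%), and identity over the 6 pairs ran from 88.5% to 92.3%. The longest unbroken match with MT2A was 63 bases in MT1X and 32 bases in MT1E and MT1F. Over the whole canonical transcripts, windows of 50 bases that occur exactly in another annotated gene made up 11.1% of those of MT2A, 10.3% of MT1E, 6.12% of MT1F and 51.0% of MT1X. At the longer window of 75 bases, no window in MT2A (401 bases long) or MT1F (425 bases) was shared. In MT1E (746 bases) 1.64% of such windows were. In MT1X (404 bases) 36.1% were, of which those in another metallothionein gene made up 8.18% of all windows. Read length and the handling of multiply mapped reads could not be taken from the sources used here, and the values of MT1X are less certain than those of MT2A, MT1E and MT1F.

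All 4 genes lie on the plus strand of chromosome 16 (hg19) within a 76.0 kb cluster. MT2A, the main metallothionein of most human tissues, occupies chr16:56642111-56643409 and has 3 exons. Its signal was 498, 409 and 437 in siCON A, B and C and 120.5, 127, 119.7 and 116 in siYT A, B, C and D. Every siYT library thus lay far below the lowest control, and the 4 siYT values were closer to each other (SD 4.57 around a mean of 121) than the siCON values (SD 45.1 around 448). The log2 fold change was −1.88 ± 0.06 (SE; limma adjusted p = 1.08e-12). By mean signal MT2A ranked 272 among the tested genes in siCON, and 115 of the tested genes (0.88%) had a lower log2 fold change.

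MT1E lies at chr16:56659387-56661024 and its canonical transcript has 2 exons. MT1E is among the MT1 isoforms that human epithelial cells express. It measured 266, 251 and 228 in siCON A to C, and 111, 103, 82.4 and 101 in siYT A to D. The groups were well apart, with siYT C the lowest library. The means were 248 ± 19.4 (SD, n = 3) and 99.5 ± 12.2 (SD, n = 4), a log2 fold change of −1.32 ± 0.08 (SE; limma adjusted p = 1.37e-09).

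MT1X is at chr16:56716336-56718108 with 3 exons, and a long non-coding gene on the same strand overlaps it, whose reads cannot be told apart from it here. Its values were 42.7, 40.5 and 39.1 in siCON A to C, and 20.8, 21.3, 18.7 and 19.9 in siYT A to D. Both groups were tight and separate. The log2 fold change was −1.0 ± 0.07 (SE; limma adjusted p = 2.16e-09), the smallest of the 4.

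MT1F, at chr16:56691606-56694610 with 3 exons, was the least abundant member. Its signal was 2.61, 2.35 and 2.34 in siCON A to C and 0.789, 0.588, 0.934 and 0.695 in siYT A to D. No siYT library reached a siCON value, although the siYT libraries varied by 19.5% of their mean (coefficient of variation), the most of any member. The log2 fold change was −1.24 ± 0.15 (SE; limma adjusted p = 2.99e-06), with the 0.5 added to every value before the log understating the change at this level. Without that constant the means were 2.43 ± 0.155 (SD, n = 3) and 0.751 ± 0.147 (SD, n = 4).

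One further metallothionein row was present, the pseudogene MT1L (chr16:56651388-56652730). It measured 2.21, 2.21 and 2.87 in siCON A to C and 0.830, 0.667, 0.661 and 0.366 in siYT A to D, a log2 fold change of −1.38 ± 0.18 (SE; limma adjusted p = 4.12e-06). The whole of its annotated transcript also occurs in an overlapping non-coding gene, so its signal is uncertain. Of the 22 metallothionein genes and pseudogenes listed, these 5 had a row. All 5 were called lower, against 13.2% of all genes tested, and their median log2 fold change was −1.32 against 0.00 over all genes tested. Short genes were called lower more often, as described below: 51.2% with transcripts of up to 500 bases and 35.7% with 500 to 1000. The other 17 were not analysed here.

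**Figure D1:**
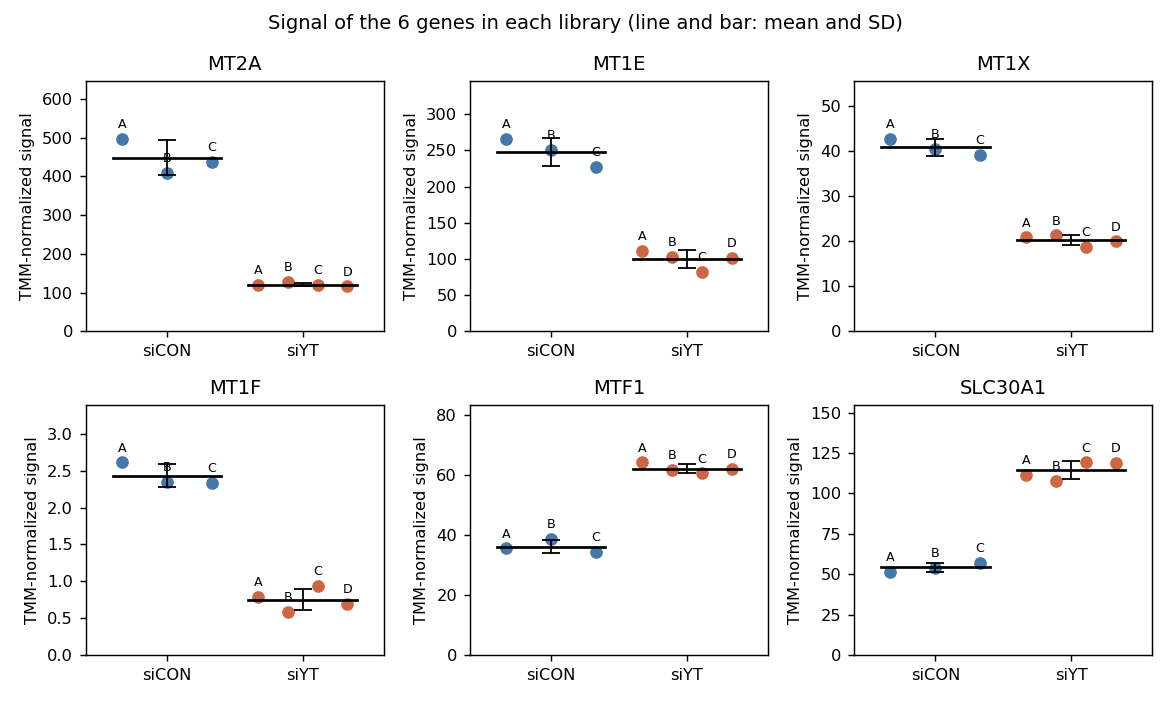
TMM-normalized signal (y axes, from 0, each with its own scale) of the 6 genes in every siCON and siYT library. Points are libraries marked by their letter, lines are group means and bars are SDs. The siYT points lie below the siCON points for MT2A, MT1E, MT1X and MT1F and above them for MTF1 and SLC30A1, with no overlap in any panel.

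Because near-identical members can exchange reads, the 5 metallothionein rows were added up. The sum was 811, 705 and 709 in siCON A to C and 254, 252, 222 and 238 in siYT A to D. The mean fell from 742 ± 60.2 (SD, n = 3) to 242 ± 14.7 (SD, n = 4), which was 3.07-fold lower. As a share of a library's signal, metallothioneins took 0.0738% to 0.0856% in siCON and 0.0257% to 0.0287% in siYT.

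The fall was not even across the members. MT2A held 60.3% ± 2.0 (SD, n = 3) of the summed signal in siCON and 50% ± 2.8 (SD, n = 4) in siYT, and the libraries did not overlap (58.0% to 61.7% against 47.4% to 53.8%). The ratio of MT2A to MT1E was 1.87, 1.63 and 1.92 in siCON A to C and 1.08, 1.23, 1.45 and 1.14 in siYT A to D. It was thus lower in every siYT library, and siYT C, where MT1E was lowest, came nearest to the controls. These shares and ratios are descriptions and were not tested.

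**Figure D2:**
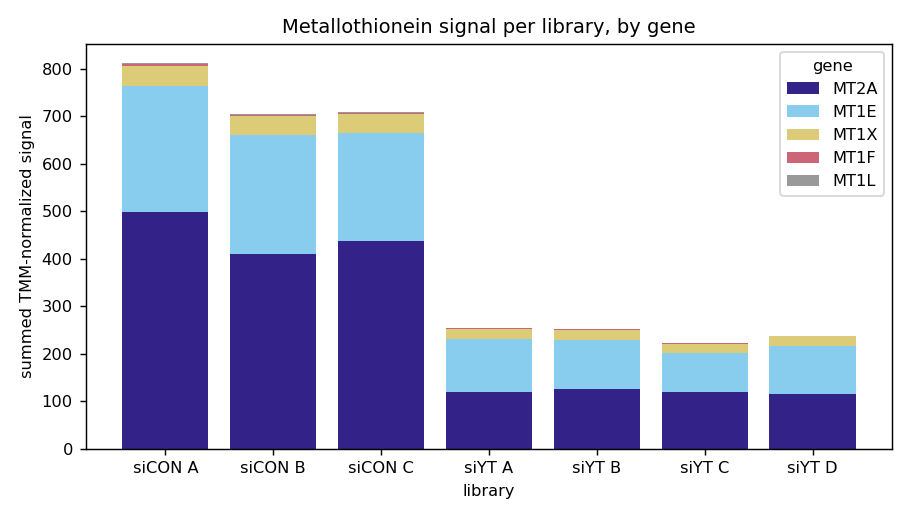
Summed TMM-normalized signal (y axis, from 0) of the metallothionein rows in each library (x axis), with a coloured segment for each gene. The siCON bars reach 705 to 811 and the siYT bars 222 to 254, and MT2A and MT1E make up most of each bar in both groups.

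MTF1 moved in the other direction from the metallothioneins. It lies on the minus strand at chr1:38275239-38325292 with 11 exons and overlaps a gene on each strand. Its signal was 35.5, 38.5 and 34.3 in siCON A to C and 64.1, 61.5, 60.5 and 61.9 in siYT A to D. The siYT libraries were all well above the siCON libraries and close to each other (mean 62.0, SD 1.53). The log2 fold change was 0.77 ± 0.06 (SE; limma adjusted p = 6.95e-09).

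SLC30A1, the zinc exporter, lies on the minus strand at chr1:211744910-211752084 with 2 exons and overlaps no annotated gene. It measured 51.4, 54.1 and 57.1 in siCON A to C and 111, 108, 119 and 119 in siYT A to D. The lowest siYT library was still far above the highest control. The log2 fold change was 1.07 ± 0.06 (SE; limma adjusted p = 1.69e-10), and 4.51% of tested genes had a higher one. SLC30A1 and the metallothioneins, which share MTF1 as a known activator, therefore changed in opposite directions in the same libraries.

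Set per kilobase of canonical transcript, so that levels can be compared between genes, MT2A was the most abundant at 1120 per kb in siCON, followed by MT1E at 333, MT1X at 101, SLC30A1 at 9.20, MT1F at 5.73 and MTF1 at 4.55. In siYT the levels per kb were 301 for MT2A, 133 for MT1E, 49.9 for MT1X, 19.4 for SLC30A1, 7.81 for MTF1 and 1.77 for MT1F. For MT1E the 746-base canonical transcript was used and not the principal isoform, so its level per kb depends on that choice. The order held except that MTF1 and MT1F changed places. No neighbours in either order overlapped between their libraries. The closest were MT1F, at 5.50 to 6.15 per kb in siCON, and MTF1, at 4.32 to 4.85.

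Promoters are shown because MREs are the sites through which MTF1 is known to act. The 250 bases before the annotated start were taken from RefSeq (GRCh38.p14), 5′ to 3′ on the gene's strand, and matches to TGCACNC or TGCGCNC on either strand are in capitals.
MT2A, chr16:56608334-56608583 (+): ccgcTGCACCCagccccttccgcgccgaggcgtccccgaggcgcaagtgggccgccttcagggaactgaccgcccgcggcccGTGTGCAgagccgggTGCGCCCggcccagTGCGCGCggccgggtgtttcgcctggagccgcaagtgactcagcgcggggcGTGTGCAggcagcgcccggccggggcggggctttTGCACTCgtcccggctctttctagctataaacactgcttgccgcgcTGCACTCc
MT1X, chr16:56682220-56682469 (+): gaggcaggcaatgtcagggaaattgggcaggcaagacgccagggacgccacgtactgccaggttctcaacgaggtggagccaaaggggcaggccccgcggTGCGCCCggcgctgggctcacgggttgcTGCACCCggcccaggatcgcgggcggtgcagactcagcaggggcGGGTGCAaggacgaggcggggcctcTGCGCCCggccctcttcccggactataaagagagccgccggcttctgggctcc
SLC30A1, chr1:211579162-211579411 (−): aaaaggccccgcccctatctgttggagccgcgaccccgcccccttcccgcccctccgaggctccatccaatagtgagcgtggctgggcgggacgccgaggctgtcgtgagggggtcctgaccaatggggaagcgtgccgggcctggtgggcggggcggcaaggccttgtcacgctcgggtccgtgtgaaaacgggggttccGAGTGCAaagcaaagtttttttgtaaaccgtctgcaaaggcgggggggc
MT2A held 7 matches, a number that 0.033% of 27305 RefSeq promoters of this length reach. MT1X held 4, which 0.366% reach. SLC30A1 held 1, which 24.7% reach, and the MTF1 promoter (chr1:37859593-37859842, minus strand) held none. MT1E and MT1F were not looked up beyond this table. The letters GGAATG, the core of the sites that TEAD factors bind, were searched on both strands and occurred in none of the 4 promoters. Most promoters lack them (11.9% hold them), so their absence from 4 says little. Sequence beyond the 250 bases was not searched. A match is a description of the letters and not a site in use.

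The members were then set beside the other genes of zinc transport. The SLC39A (ZIP) family brings zinc into the cytosol, and 11 of its 14 listed genes were tested. None of the 11 was called higher, 5 were called lower and 6 were not called, against 14.1% higher and 13.2% lower over all genes. The median log2 fold change was −0.44, and the summed signal of the family was 783 to 800 in siCON and 496 to 521 in siYT. SLC39A7, named after its values were seen, passed the adjusted p (0.00036, limma) at a log2 fold change of 0.24, under the 1.5-fold limit. SLC39A8 (ZIP8), which also carries manganese, measured 38.4, 37.4 and 38.5 in siCON A to C and 8.88, 7.53, 7.31 and 7.57 in siYT A to D. That was the largest change of the family, at a log2 fold change of −2.22 ± 0.08 (SE; limma adjusted p = 2.31e-12). SLC39A6 (ZIP6), the most abundant of the 5, fell from 238 ± 16.3 (SD, n = 3) to 71.7 ± 4.74 (SD, n = 4), a log2 fold change of −1.72 (limma adjusted p = 2.48e-12). SLC39A4 (ZIP4), mutated in the zinc-deficiency disease acrodermatitis enteropathica, fell from 14.6 ± 0.299 to 4.07 ± 0.229 (−1.72, limma adjusted p = 1.57e-10). SLC39A14 (ZIP14), a carrier of zinc, iron and manganese, fell from 110.1 ± 0.660 to 53.9 ± 1.62 (−1.02, limma adjusted p = 6.04e-11), and SLC39A10, named after its values were seen, from 17.4 ± 0.484 to 8.54 ± 1.27 (−0.99, limma adjusted p = 3.01e-07).

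SLC30A1 belongs to the ZnT family of zinc exporters. Of 10 listed, 6 were tested, of which SLC30A1 rose, SLC30A7 fell and 4 were not called (over all genes, 14.1% higher and 13.2% lower). The median log2 fold change of the 6 was 0.26. SLC30A7 (ZnT7), which loads zinc into the Golgi, measured 20.6, 21.4 and 24.6 in siCON A to C and 13.5, 14.5, 14.3 and 13.9 in siYT A to D (log2 fold change −0.64 ± 0.08, limma adjusted p = 1.85e-06). The groups were apart, but the call was lost without siCON C (−0.56). SLC30A4 and SLC30A9, named after their values were seen, passed the adjusted p (5.03e-05 and 1.02e-05) at log2 fold changes of 0.53 and 0.42, under the 1.5-fold limit. With library totals set equal, SLC30A4 was called higher (0.64) and SLC30A7 was not called (−0.53). The summed signal of the 6 exporters was 200 to 218 in siCON and 289 to 293 in siYT. This sum holds the member SLC30A1 itself, whose mean went from 54.2 to 114. The mean of SLC30A9 went from 64.9 to 87.0 and that of SLC30A7 from 22.2 to 14.1, so the sum does not stand for the whole family.

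**Figure D3:**
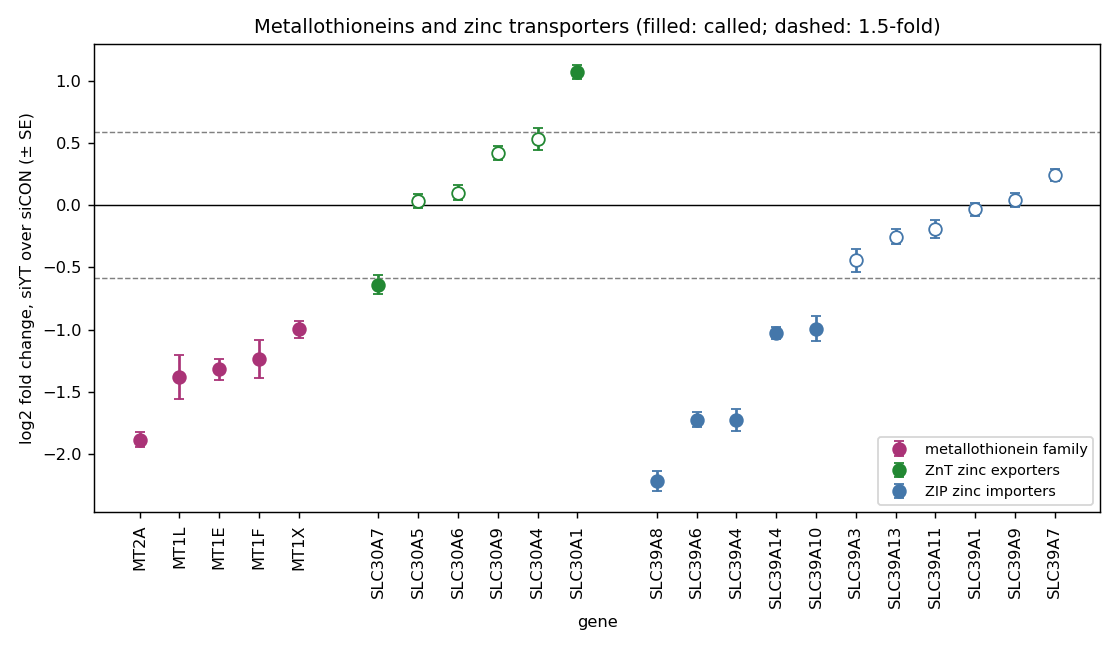
Log2 fold change of siYT over siCON (y axis, bars are SEs) for the tested metallothionein, ZnT and ZIP genes (x axis). Filled points were called, open points were not, and dashed lines mark 1.5-fold. All 5 metallothioneins, 5 of 11 ZIP genes and the ZnT gene SLC30A7 lie below the lower line. SLC30A1 alone lies above the upper line, which SLC30A4 also passes when library totals are set equal.

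MTF1 was also set among regulators linked to zinc sensing or to its own activity. Of the 8, which include MTF1, 4 were called higher, none lower and 4 were not called. Over all genes, 14.1% were called higher and 13.2% lower. The median log2 fold change of the 8 was 0.63. KAT2B (PCAF), a histone acetyltransferase, measured 20.7, 22.7 and 21.3 in siCON A to C and 92.4, 86.5, 95.6 and 100.3 in siYT A to D (2.09 ± 0.06, limma adjusted p = 3.62e-13). ZNF658, a zinc finger protein reported to repress zinc-responsive genes in human cells, rose from 6.91 ± 0.818 (SD, n = 3) to 13.9 ± 0.815 (SD, n = 4), a log2 fold change of 0.96 (limma adjusted p = 1.61e-07). SP1, a general activator of GC-rich promoters, rose from 77.2 ± 2.84 to 125 ± 1.25 (0.69, limma adjusted p = 3.78e-09).

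Copper, which metallothioneins also hold, was examined through 15 genes of its handling. Of these, 3 rose, 4 fell and 8 were not called, against 14.1% higher and 13.2% lower over all genes. Their median log2 fold change was −0.22, but 0.05 once a trend on transcript length, described below, was removed. The copper chaperone ATOX1 fell from 43.6 ± 1.38 (SD, n = 3) to 20.6 ± 1.69 (SD, n = 4), at −1.06 (limma adjusted p = 2.09e-09). SLC31A2 (−1.25), the metalloreductase STEAP4 (−1.01) and the cytochrome oxidase assembly factor SCO1 (−0.88) also fell. The importer SLC31A1 (0.65) and the copper pumps ATP7A (0.64) and ATP7B (0.60), named after their values were seen, rose, and the call for ATP7B was lost without siCON B (0.51). With 2 in place of 0.5 added before the log, ATP7A (0.58) and ATP7B (0.56) were not called, and SLC31A1 was the 1 copper gene called higher. With upper quartiles set equal, ATP7B was not called (0.58).

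Genes that metal or oxidative stress induces were called in both directions, at shares near those of all genes (14.1% higher, 13.2% lower). Of 12, 2 rose, 2 fell and 8 were not called, with a median log2 fold change of 0.01. SLC7A11, the cystine importer that feeds glutathione synthesis, measured 67.0, 73.7 and 53.4 in siCON A to C and 9.34, 8.94, 15.5 and 8.44 in siYT A to D (−2.59 ± 0.16, limma adjusted p = 1.10e-09). GCLM, a subunit of the enzyme that starts glutathione synthesis, fell from 31.4 ± 0.699 to 18.4 ± 1.23 (−0.76, limma adjusted p = 8.14e-08). HMOX1, the haem oxygenase, rose from 3.63 ± 0.483 to 7.12 ± 0.504 (0.89, limma adjusted p = 2.73e-06), and the heat shock gene HSPA1B from 98.5 ± 11 to 150.03 ± 4.42 (0.61, limma adjusted p = 4.38e-07). HSPA1B is nearly identical to HSPA1A, so its share of reads is uncertain, and its call was lost without siCON A (0.57) or siCON B (0.56).

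Glucocorticoids are a further inducer of MT2A, so the glucocorticoid receptor NR3C1 was examined with genes that respond to it. Of these 12 genes, 5 rose, 1 fell and 6 were not called, against 14.1% higher and 13.2% lower over all genes. Their median log2 fold change was 0.52. ZBTB16 rose from 17.3 ± 1.20 (SD, n = 3) to 58.2 ± 6.03 (SD, n = 4), a log2 fold change of 1.72 (limma adjusted p = 3.39e-11). The transcription factors TFCP2L1 (1.68) and KLF9 (1.6), and, named after their values were seen, FKBP5 (0.66) and NR3C1 (0.62), also rose, whereas the EGF receptor inhibitor ERRFI1 fell (−1.05). The call for NR3C1 was lost without siCON A (0.58) or siCON C (0.57).

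Within 500 kb of either end of the metallothionein cluster, 9 other tested genes are reported, of which 2 rose and 1 fell (over all genes, 14.1% and 13.2%), and their median log2 fold change was −0.02. GNAO1, which encodes a G protein subunit, rose from 23.1 ± 1.17 (SD, n = 3) to 76.4 ± 4.64 (SD, n = 4), a log2 fold change of 1.70 (limma adjusted p = 3.02e-12). NLRC5, an activator of MHC class I genes, rose (1.25, limma adjusted p = 7.31e-09). HERPUD1, an endoplasmic reticulum stress gene, fell from 82.7 ± 2.73 to 36.6 ± 4.14 (−1.17, limma adjusted p = 1.37e-09).

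**Figure D4:**
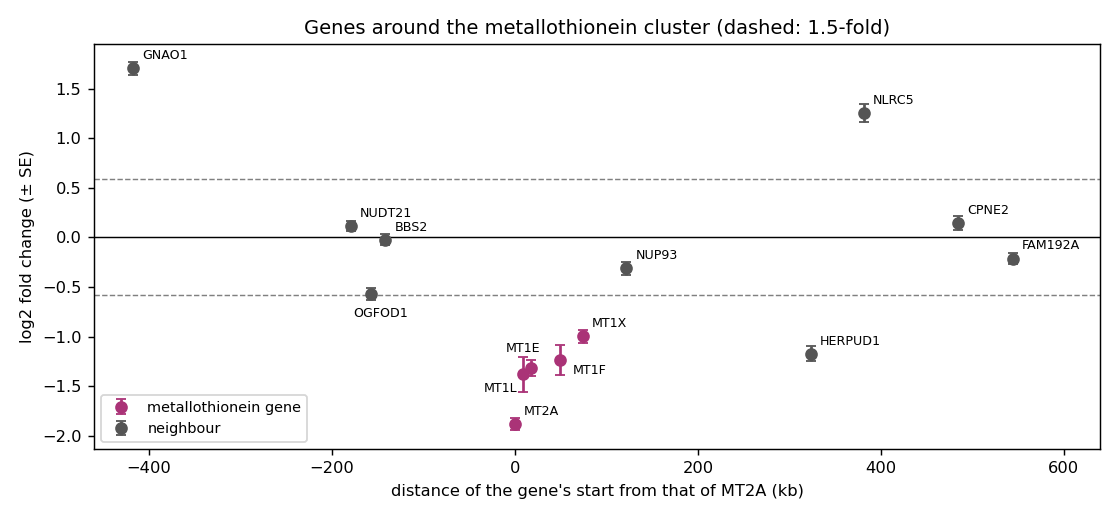
Log2 fold change of siYT over siCON (y axis, bars are SEs) against the distance of each gene's start from that of MT2A in kb (x axis), with metallothionein genes and 9 tested neighbours in different colours. The metallothionein genes form a group between −1.88 and −1.0, and of the neighbours drawn HERPUD1 lies within that range.

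Short genes were lower in siYT across the whole table, and the metallothioneins are short. Of 395 tested genes with a canonical transcript of 350 to 800 bases, the range that holds the 4 metallothioneins, 41.5% were called lower and the median log2 fold change was −0.50. Of these genes, 2.03% were at or below the log2 fold change of MT2A and 9.62% at or below that of MT1X. In the narrower class of up to 500 bases, which holds MT2A, MT1X and MT1F, 51.2% of 86 genes were called lower, the median was −0.60, and 1.16% and 15.1% were at or below MT2A and MT1X. These shares count the metallothioneins of each class, MT2A and MT1X themselves included. Among genes of 4000 to 8000 bases, the class of MTF1 (7937 bases) and SLC30A1 (5893 bases), 7.30% were called lower, 18.6% were called higher and the median was 0.15. With this trend on length removed, the log2 fold changes were −1.25 for MT2A, −0.85 for MT1E, −0.61 for MT1F, −0.36 for MT1X, 0.63 for MTF1 and 0.95 for SLC30A1. The value of MT1E rests on its 746-base canonical transcript, which is longer than those of the other metallothionein members. MT1X (limma adjusted p = 2.58e-05) and the pseudogene MT1L (−0.56) then fell short of 1.5-fold, and the other members were still called. The calls of ATOX1 (−0.47), SP1 (0.54), NR3C1 (0.48), SLC31A1 (0.57), ATP7A (0.49) and ATP7B (0.47) were lost as well. So were those of TP63 (0.53) and of POLE4 (−0.27), a gene named below. Without the trend, the median log2 fold change of the 5 metallothionein rows was −0.61, with 3 called lower. That of the ZIP genes was −0.16, with 5 called lower, and that of the copper genes 0.05, with 3 called lower and none higher. Medians of the other lists were 0.15 (ZnT genes), 0.13 (stress genes), 0.56 (glucocorticoid genes) and 0.58 (regulators set with MTF1). The part of transcript length in the results was not tested further.

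**Figure D5:**
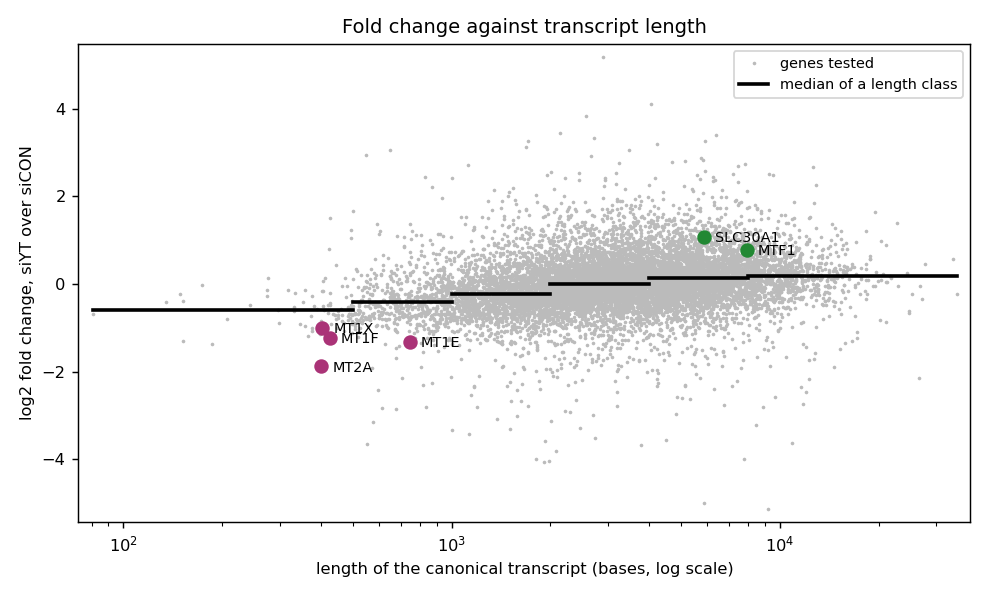
Log2 fold change of siYT over siCON (y axis) against the length of the canonical transcript in bases (x axis, log scale) for tested genes with a known length (grey), with the median of each length class (black lines). The 4 metallothioneins lie below the median of genes of their length, and MTF1 and SLC30A1 above that of theirs.

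With library totals set equal in place of the TMM scaling, the median log2 fold change of all genes was 0.11, and 64.6% of the 3620 calls were higher in siYT, against 51.6% of the 3579 calls with the deposited scaling. Under equal totals MT2A was at −1.77, MT1E at −1.21, MT1F at −1.15, MT1X at −0.89, MTF1 at 0.88 and SLC30A1 at 1.2, and all 6 were called.

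Across the 7 libraries, the genes whose log2 values followed the mean of the metallothioneins most closely, outside the family, were ST6GALNAC5, AC007879.7, SCO1, PCYT2 and NME4, each with a Pearson correlation of 0.999. This is a description of 7 libraries in 2 groups: 450 of 13067 genes reached 0.99. After both were centred within their groups, the closest were FLOT2 and POLE4 (0.989), AADAT (0.988), ST6GALNAC4 (0.987) and UCK2 (0.986), and no gene reached 0.99. Among the members themselves, centred in the same way, MT1E and MT1X moved most alike (0.90), MT2A and MT1E less so (0.28), and SLC30A1 ran opposite to MT1X (−0.92). The values 0.90 and −0.92 are the extremes of all pairs of members. MT1F was at −0.40 with MT1E, −0.47 with MT1X, 0.11 with MT2A and 0.26 with SLC30A1. It had only about 15 to 24 reads per siYT library if the lowest value stands for 1 read. Its values within a group may therefore be counting scatter, and no difference from the other metallothioneins is read from them. These libraries share their scaling, the trend on transcript length was not removed from these values, and no p is given.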

How the data were processed

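Poly(A) RNA-seq was analysed from 3 siCON and 4 siYT libraries. Per the labels, the tools of the authors were Partek 8.0.19.0819, STAR 2.6.1 and cutadapt 1.18, the genome build was hg19, and the deposited values are a TMM-normalized signal per gene. A deposited table of the authors' own comparison (p-values, fold changes and group means) was not used. Strand setting, read length and treatment of multiply mapped reads are not given in the sources used here. For genes with a mean below 2, 82.3% of values came within 0.05 of being whole when divided by the smallest value of the library, so counts were not recovered and no count model was fitted. Depth limits the precision of low genes such as MT1F.

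The 18478 entries were reduced to 16686 symbols by dropping 1792 repeats. Testing covered 13072 genes (mean 1 or more) and used log2(value + 0.5) in limma 3.58.1 (R 4.3.3, two-sided, mean-variance trend, no covariate), with Benjamini-Hochberg adjustment over all of them. Called means adjusted p under 0.05 and at least 1.5-fold, the study's thresholds. The script was tested on simulated data. The stop position of the table is the first base after a gene, so 1 was subtracted. Transcripts came from GENCODE on GRCh37, with a length for 81.1% of symbols, and promoters from RefSeq.

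The likest replicates were siYT A and B, whose median squared difference divided by an approximate counting variance was 1.65 (3.44 to 5.44 in other pairs of 1 group). Both were kept. Genes were named by rule: the 6 members, other metallothionein rows, YAP1 and WWTR1, up to 4 called genes with the largest change per list, the 4 neighbours with the largest change (1 of which is not reported here and was left out of the counts), and the 5 genes most like the metallothioneins by each correlation. Members and lists were chosen with earlier results of these data known. The alternatives were other pseudocounts, filters and scalings, no mean-variance trend, removal of the length trend, a replicate block, each library left out and, chosen after seeing the data, siYT A and B averaged.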

Additional observations from a re-analysis of the deposited data

Results flagged for a closer look

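Of 53 named genes examined in the 4 siYT libraries, 4 had a library far from the others by Dixon's test at the 95% level, where chance gives about 1 in 20. SLC39A8 measured 8.88 in siYT A, against 7.57 in the next library. SLC7A11 measured 15.5 in siYT C, against 9.34 in the next. HMOX1 measured 7.86 in siYT D, against 6.93 in the next. SLC30A4 measured 8.71 in siYT C, against 9.10 in the next. None of the 6 members was among them. In all 4 genes the library that stood apart was still on its group's side of every siCON library.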

How the results depend on the processing

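All 6 members kept their direction and, except MT1X, their call under every alternative in which they were tested. The log2 fold change of MT2A ran from −1.95 to −1.25, that of MT1E from −1.38 to −0.85, that of MT1F from −1.59 to −0.61, that of MTF1 from 0.63 to 0.88 and that of SLC30A1 from 0.95 to 1.2. With the length trend removed, MT1X was at −0.36 and no longer called, and genes called lower numbered 1124. That fit covers the 11547 tested genes with a length, of which 1510 were called lower without removal of the trend, against 1732 of all genes tested. The summed metallothionein level in siYT was 0.326 of that in siCON, and 0.412 when MT2A was left out of the sum. A minimum mean of 5 removed MT1F and MT1L from the test. Calls over all alternatives numbered 2822 to 4001, and 3483 to 3755 when 1 library was left out. With siYT A and B averaged as 1 library, chosen after seeing the data, calls numbered 3646 and all 6 members were called. Same-letter libraries correlated at 0.16, 0.03 and 0.18 for A, B and C, and siCON A and B were each closest to a siYT library of another letter, so the letters were not taken to pair the samples. With the letter as a replicate block, calls numbered 3528 and all 6 members were called. siYT D has no partner, so the block leaves it without weight. Low signal limits MT1F, at about 15 to 24 reads per siYT library if the lowest value stands for 1 read, and shared sequence limits MT1X and MT1L.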
